A study of Sus scrofa with 6 samples.

Results

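Transcripts of translation initiation and elongation factors were compared in the pig between LDM, the longissimus dorsi of the back, and PMM, the psoas major of the loin. Members were taken by a rule on annotation, chosen with earlier results of these data known. A probe was taken when its description named a translation initiation or elongation factor, or when its gene name began with EIF or EEF, which held for 75 of the 43603 probes. Of these, 57 probes could be placed on 27 factors, among 3339 genes named on the array in all. Another 15 probes were described only by a protein of another organism and were kept apart. The remaining 3 probes belonged to AGO2 and AGO4, argonaute genes whose older names begin with EIF2C and which act in silencing by small RNAs, not as initiation factors.

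The animals were 3 female Landrace pigs, not closely related, raised on the same diet, slaughtered at 210 days of age after a period without feed. No genotype or treatment distinguished the groups, and the muscle was the compared factor. Each muscle gave 3 one-colour arrays, named replicates 1 to 3. Both muscles were sampled in each pig, but whether arrays of the same number come from the same animal is not stated in the sources used here. The series asks how gene expression differs between oxidative and glycolytic muscle.

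Protein synthesis starts when the eIF4F complex, made of the cap-binding protein eIF4E, the scaffold eIF4G and the RNA helicase eIF4A, prepares the mRNA for the small ribosomal subunit. eIF2 brings the initiator tRNA and is recharged by its exchange factor eIF2B, a step that stress kinases block by phosphorylating eIF2. Elongation then depends on eEF1A, which delivers each aminoacyl-tRNA to the ribosome and is recharged by the eEF1B complex. eEF1A has a widely expressed form, EEF1A1, and a second form, EEF1A2, known to take over in mature skeletal muscle and neurons.

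Values are log2 intensities scaled to the 75th percentile of their own array, so 0 is the upper-quartile brightness of an array, and differences are PMM minus LDM on that scale. Detection means a signal well above background, and a probe was tested when at least 1 muscle had it detected on each of its 3 arrays. The lower limit of detection varied between arrays, since 58.5% to 72.4% of the spots of an array were well above the background, and the number of arrays limits the precision. No spot was saturated. The labels' account of RNA extraction speaks of adipose tissue. All 7 skeletal muscle marker genes with a named probe, ACTA1, CKM and DES among them, met the condition for testing. So did all 7 adipocyte marker genes with a named probe. Summed over the list, and relative to the 75th percentile of each array, these muscle markers ranged from 2620 to 4110 in LDM and from 3170 to 4940 in PMM. The adipocyte list ranged from 80 to 240 in LDM and from 84.1 to 258 in PMM. Levels of different probes cannot be compared on an array, so these sums do not measure the share of muscle or fat. Fewer cells of a type and less RNA per cell cannot be told apart in such tissue samples.

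No factor passed the test between the muscles. limma called 0 of the 23 tested factors and 0 of the 60 tested member probes at an adjusted p under 0.05, beside 0% of all 25835 tested probes. The lowest adjusted p over all probes was 0.0513, just past the threshold, and other scalings called up to 9 probes of the whole array, none of them a member. With the replicate number as a block, it again called 0 factors and 0 member probes, beside 0.0619% of all probes, and the lowest adjusted p was 0.597 among factors and 0.375 among member probes. At an unadjusted p under 0.05, 1 of the 60 member probes passed without the block, beside 2.67% of all probes, and 2 passed with it, beside 11.3%.

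By the mean, 17 of the 23 factors were lower in PMM, or 73.9%, beside 54.8% of all tested probes. The median difference over the factors was -0.14, beside -0.03 over all probes. Under the other scalings 17 to 19 factors were lower. The lean was widest between the arrays of replicate 3. The median over the factors was -0.07 between the arrays of replicate 1, -0.00081 between those of replicate 2 and -0.37 between those of replicate 3, where all probes gave -0.01, 0.01 and -0.08. Without the PMM array of replicate 3, 12 of the 23 factors were lower and the median was -0.01. Without both arrays of replicate 3 the median was -0.02, with 15 factors lower. The plot of differences by factor sets out these values.

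**Figure D1:**
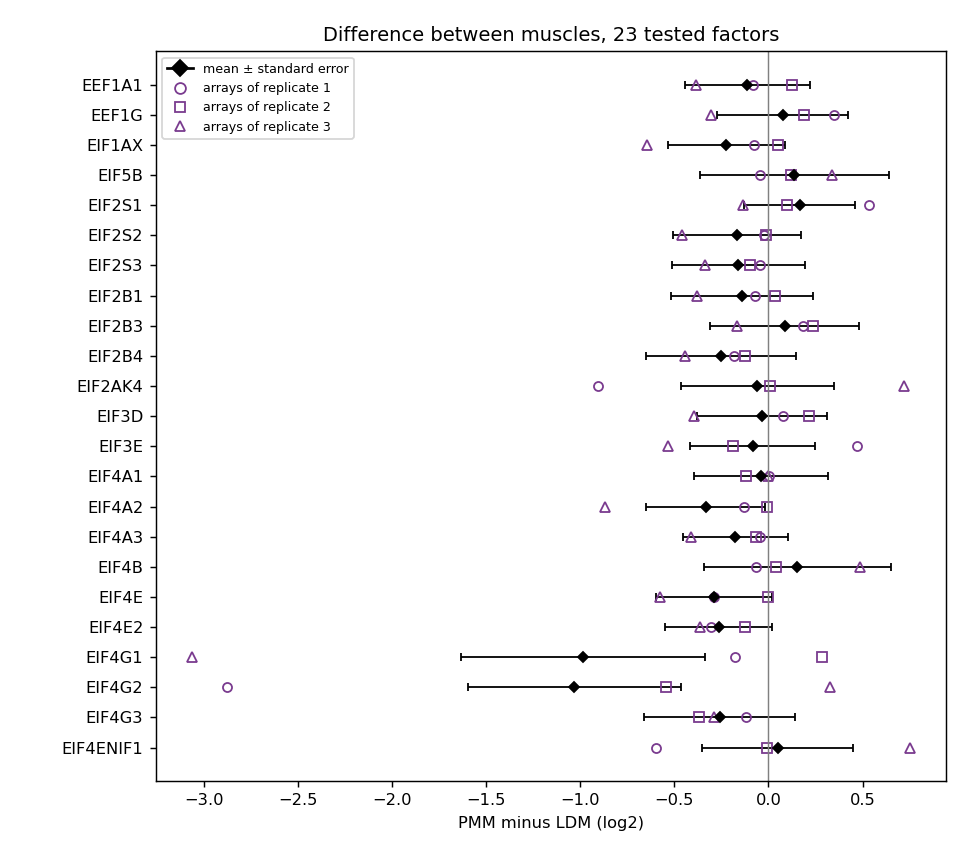
Difference between PMM and LDM (log2) for the 23 tested factors, each by its tested probe with the highest mean signal. Diamonds with bars are the mean and the standard error from limma, and open symbols are the differences between the arrays of the same replicate number. EIF4G1 and EIF4G2 lie at -0.99 and -1.03, the remaining means lie between -0.33 and 0.17, and many triangles (replicate 3) lie farther left than the circles and squares.

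EEF1A1, the delivery factor of elongation, had 9 probes, of which 8 were tested. The probe with the highest mean signal, A_72_P016236, read 8.01, 8.17 and 8.80 on the LDM arrays of replicates 1, 2 and 3 and 7.93, 8.29 and 8.41 on the PMM arrays. These values overlapped, with the LDM array of replicate 3 above all others. LDM averaged 8.32 ± 0.42 (SD, n = 3) and PMM 8.21 ± 0.25 (SD, n = 3), a difference of -0.11 (SE 0.33), or 1.08-fold lower in PMM, with an adjusted p of 1 in limma. The 95% interval of the difference ran from -0.87 to 0.65, and with the replicate number as a block it ran from -0.57 to 0.34. Both included 0.

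The other 7 tested EEF1A1 probes were also lower in PMM, by -0.26 to -0.41. Their direction was the same under normexp, quantile and median scaling, but without the LDM array of replicate 3 only 5 of the 8 probes were lower. The probes are not independent readings, because they are placed on the same gene, were read on the same arrays and some share sequence. The sequences of 3 probes that overlap each other are shown to make this plain, with the run common to all 3 in capitals, 5′ to 3′ as on the array.
A_72_P221012: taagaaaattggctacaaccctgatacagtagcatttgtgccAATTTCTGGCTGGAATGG
A_72_P092941: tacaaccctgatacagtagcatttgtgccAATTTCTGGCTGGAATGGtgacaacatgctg
A_72_P033081: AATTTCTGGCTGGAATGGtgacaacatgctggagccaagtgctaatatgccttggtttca

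Of these 60-base probes, A_72_P221012 and A_72_P092941 share 47 bases, A_72_P092941 and A_72_P033081 share 31, and all 3 share 18. A_72_P221012 read 4.41, 4.15 and 4.53 on the LDM arrays and 3.92, 4.12 and 3.91 on the PMM arrays. Here the muscles did not overlap, with all PMM values below all LDM values, although the arrays of replicate 2 differed by only -0.03. The difference was -0.38 (SE 0.28), and its exact permutation p was 0.1, the smallest that 3 against 3 arrays can give, with an adjusted p of 1 in limma. On the overlapping probes A_72_P092941 and A_72_P033081 the differences were -0.36 (SE 0.30) and -0.41 (SE 0.31), and the muscles overlapped on both. Of the 60 tested member probes, 3 lacked overlap between the muscles, all lower in PMM. They were A_72_P221012, the EIF4E2 probe A_72_P303629 and A_72_P034381, a probe described by a protein of another organism. A_72_P034381 was well above the background on only 1 PMM array and entered the test through LDM alone, so its lack of overlap is not read further. Beside the 3 probes stand 5.94% of all tested probes without overlap in either direction and 2.79% lower in PMM.

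Within EEF1A1, the probes fell into differing profiles across the arrays. On the 3 overlapping probes above and on A_72_P101186, LDM replicate 2 was the lowest LDM array. On A_72_P016236, A_72_P066381, A_72_P321073 and A_72_P025761, LDM replicate 1 was the lowest LDM array and PMM replicate 1 the lowest PMM array. LDM replicate 3 was the highest of the 6 arrays on all 8 probes.

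**Figure D2:**
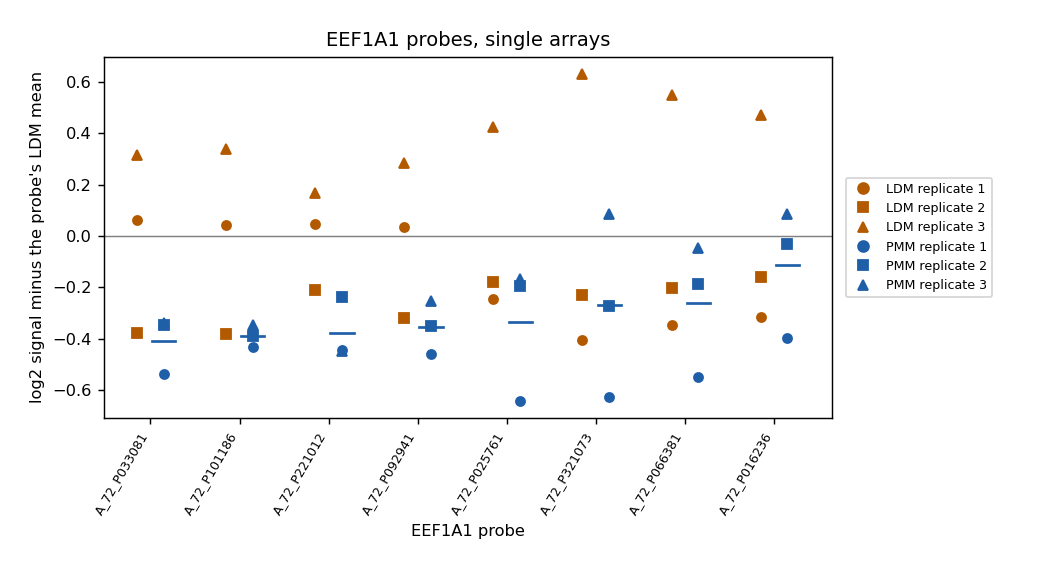
Signals of the 8 tested EEF1A1 probes on single arrays (log2, minus the LDM mean of the same probe), ordered by the mean difference. Symbols give the replicate number, colours the muscle and short lines the PMM mean. LDM replicate 3 stands highest on every probe, the PMM means lie between -0.41 and -0.11, and the muscles do not overlap on A_72_P221012 alone.

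EEF1A2, the muscle and neuron form, could not be compared. Its only probe, A_72_P373353, read -5.19, -5.52 and -5.98 on the LDM arrays and -5.32, -5.70 and -6.65 on the PMM arrays. It was well above the background on 1 LDM array and on no PMM array, so it entered no test and its difference from EEF1A1 was not computed. Fitted without the filter on detection, its difference was -0.33 (SE 0.44), with an adjusted p of 1 in limma. The PMM readings lay below the lowest detected signals of their arrays, -4.79, -5.21 and -4.85, so the size and sign of this difference are uncertain. Since levels of different probes cannot be compared on an array, these readings do not tell how much EEF1A2 transcript either muscle held relative to EEF1A1. The ninth EEF1A1 probe, A_72_P418654, was well above the background on no array either.

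EEF1G, the gamma subunit of the exchange complex eEF1B, had 2 tested probes. A_72_P015856 read 8.96, 8.34 and 8.94 on the LDM arrays and 9.31, 8.52 and 8.63 on the PMM arrays. The values overlapped, and replicate 2 was lowest in both muscles. The difference was 0.08 (SE 0.35), with an adjusted p of 1 in limma, whereas the other probe, A_72_P020961, gave -0.22 (SE 0.39), so the sign depended on the probe.

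Among the factors that select the start codon and join the subunits, EIF1AX, which helps the small subunit scan, had 1 tested probe. It read 4.08, 3.87 and 3.96 in LDM and 4.0, 3.92 and 3.32 in PMM. Apart from PMM replicate 3, the arrays lay close together, and the difference was -0.22 (SE 0.31), adjusted p 1 in limma. EIF5, the GTPase activator of eIF2, had a probe well above the background on only 2 arrays of each muscle and was not tested.

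EIF5B, the GTPase that joins the large subunit, varied more between replicate numbers than between muscles. Its probe A_72_P117786 read 4.54, 4.09 and 2.91 in LDM and 4.50, 4.22 and 3.25 in PMM. In both muscles the array of replicate 3 was the lowest, while the difference between muscles was 0.14 (SE 0.50), adjusted p 1 in limma. The sequence of this probe is shown because the finding on EIF5B rests on it.
A_72_P117786: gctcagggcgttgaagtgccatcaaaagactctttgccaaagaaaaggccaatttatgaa

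A further EIF5B probe, A_72_P282749, gave the same order, with 2.85, 2.11 and 0.90 in LDM and 2.65, 2.10 and 1.03 in PMM, and a difference of -0.03 (SE 0.58). Of the spread of A_72_P117786 over the 6 arrays, measured as the sum of squares, replicate number took 97.1% and muscle 1.25%.

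All 3 subunits of eIF2, which carries the initiator tRNA, were tested. EIF2S1, the alpha subunit that the stress kinases phosphorylate, read 4.05, 4.38 and 4.23 in LDM and 4.58, 4.48 and 4.10 in PMM. It was the member with the highest difference among the factors, 0.17 (SE 0.29), adjusted p 1 in limma, with overlapping muscles. Its probes A_72_P042996 and A_72_P418144 share 39 bases and gave 0.17 and 0.11.

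EIF2S2, the beta subunit, had 5 tested probes. Its probe A_72_P042501 read 6.24, 6.20 and 5.84 in LDM and 6.21, 6.18 and 5.38 in PMM, a difference of -0.17 (SE 0.34). Between the arrays of replicates 1 and 2 the muscles differed by only -0.02 and -0.01, and between those of replicate 3 by -0.46. The other 4 probes gave differences from -0.49 to 0.16, again with the replicate 3 array lowest in both muscles on each. EIF2S3, the gamma subunit that binds GTP, read -3.34, -3.60 and -3.98 in LDM and -3.39, -3.70 and -4.32 in PMM, a difference of -0.16 (SE 0.35). Neither subunit passed, with an adjusted p of 1 in limma.

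eIF2B, the exchange factor of eIF2, was represented by 3 of its subunits, each by a single probe. EIF2B1, of the regulatory part, read 3.17, 2.85 and 2.42 in LDM and 3.09, 2.88 and 2.04 in PMM. EIF2B3, of the catalytic part, read 2.44, 2.05 and 1.61 in LDM and 2.62, 2.29 and 1.44 in PMM. EIF2B4, of the regulatory part, read 5.18, 4.41 and 4.32 in LDM and 5.0, 4.29 and 3.88 in PMM. On all 3 the array of replicate 1 was highest and that of replicate 3 lowest in both muscles, as in EIF5B. The differences between muscles were -0.14 (SE 0.38), 0.09 (SE 0.40) and -0.25 (SE 0.40), each with an adjusted p of 1 in limma.

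Of the kinases that phosphorylate eIF2, EIF2AK4 (GCN2), which senses uncharged tRNA, read -3.03, -3.38 and -4.41 in LDM and -3.94, -3.37 and -3.69 in PMM. The pairs of arrays pointed in opposite directions, with -0.91 for replicate 1 and 0.72 for replicate 3, and the mean difference was -0.06 (SE 0.41), adjusted p 1 in limma. The EIF2AK4 probe was well above the background on 2 of the 3 LDM arrays and entered the test through PMM. EIF2AK1, the haem-regulated kinase, was well above the background on no array.

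Of eIF3, the large scaffold on the small subunit, EIF3D and EIF3E were tested, and EIF3A was well above the background on no array. EIF3D read 5.92, 5.23 and 5.56 in LDM and 6.0, 5.44 and 5.17 in PMM, a difference of -0.03 (SE 0.35). EIF3E read 5.20, 5.78 and 5.49 in LDM and 5.68, 5.59 and 4.95 in PMM, a difference of -0.08 (SE 0.33), and its other 2 probes gave -0.07 and -0.04. PMM replicate 3 was the lowest of the 6 arrays for both genes, the muscles overlapped, and the adjusted p was 1 in limma for each.

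**Figure D3:**
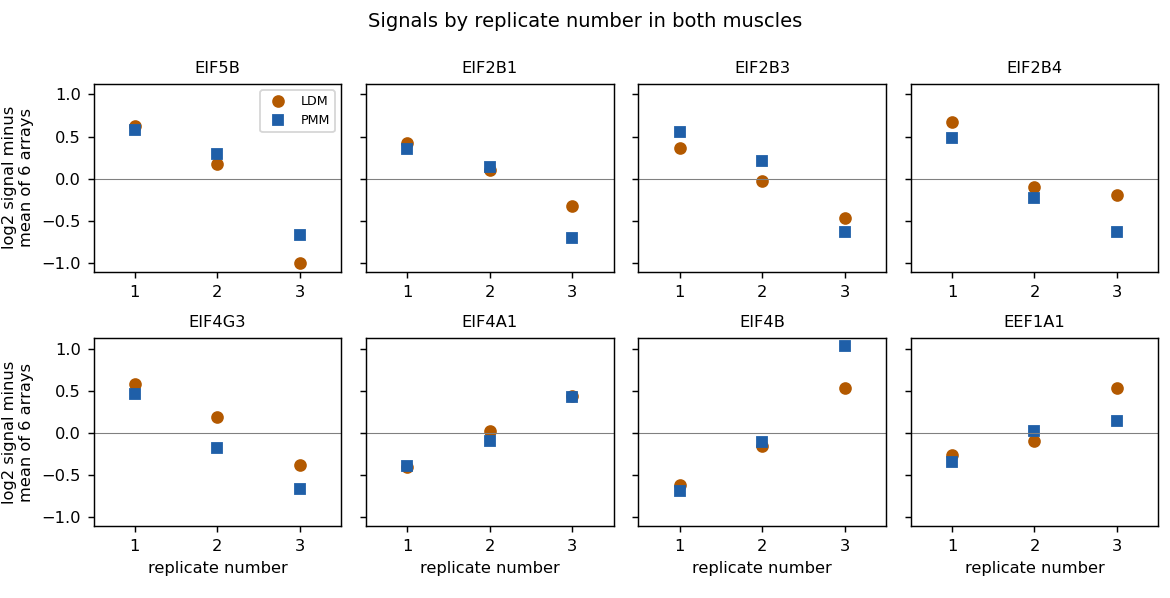
Signals of 8 factors (log2, minus the mean of the 6 arrays for the same probe) by replicate number, with LDM as circles and PMM as squares. EIF5B, EIF2B1, EIF2B3, EIF2B4 and EIF4G3 are lowest at replicate 3 in both muscles, EIF4A1 and EIF4B are highest there in both muscles, and EEF1A1 reaches its highest value on the LDM array of replicate 3.

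The group of eIF4F and its helicases held 9 tested factors, of which 8 were lower in PMM by the mean, with a median of -0.26 beside -0.03 over all probes. 8 of the 9 were also lower under normexp, quantile and median scaling, and 7 without the LDM array of replicate 3 or without the PMM array of replicate 1. None was called. The widest differences were those of EIF4G1 and EIF4G2, and in each of them 1 pair of arrays stood apart. Under normexp they shrank to -0.18 and -0.19, while EIF4A2 gave -0.50.

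EIF4G1, the main scaffold, read -3.60, -4.69 and -2.08 in LDM and -3.78, -4.40 and -5.14 in PMM. The muscles overlapped, and replicate 3 held both the highest and the lowest of the 6 values, a difference of -3.06 within that pair, against -0.18 and 0.28 in the others. The mean difference was -0.99 (SE 0.65), adjusted p 1 in limma, and its probe, which entered the test through LDM, was well above the background on 2 of the 3 PMM arrays. The PMM reading of replicate 3 lay below the lowest detected signal of that array, -4.85, so the size of its difference is uncertain. With the slide as a block it was the only factor called, at -1.39 (SE 0.36) with an adjusted p of 0.0214 in limma, 1 of 60 member probes beside 2.93% of all tested probes in the same fit. In that fit only replicates 2 and 3 had both muscles on the same slide, and their pairs gave 0.28 and -3.06. The SE of 0.36 does not reflect that spread, so the call is not read as a difference between the muscles. Without both arrays of replicate 3 the difference was 0.05.

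EIF4G2, a related scaffold that does not bind eIF4E, read -0.84, -1.42 and -1.96 in LDM and -3.72, -1.97 and -1.63 in PMM. PMM replicate 1 lay below all other arrays, and the remaining PMM arrays lay within or just beside the LDM values. The mean difference was -1.03 (SE 0.57), adjusted p 1 in limma, and fell in size to -0.39 without PMM replicate 1. With the slide as a block it was -0.11. EIF4G3, another scaffold, read 3.27, 2.89 and 2.32 in LDM and 3.15, 2.52 and 2.03 in PMM on its probe A_72_P115851. PMM read lower in each pair on this probe, with a difference of -0.26 (SE 0.40). The other tested EIF4G3 probe, A_72_P242127, gave -0.22 (SE 0.43), with -1.24, -0.28 and 0.86 in the pairs of replicates 1, 2 and 3.

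EIF4A2, the helicase form known for its high level in muscle, had 5 tested probes. On A_72_P088761 the LDM arrays read 8.43, 8.07 and 8.43 and the PMM arrays 8.30, 8.07 and 7.56. The muscles differed by -0.13 and -0.01 between the arrays of replicates 1 and 2 and by -0.87 between those of replicate 3, with a mean of -0.33 (SE 0.32), adjusted p 1 in limma. A_72_P127521, A_72_P216007 and A_72_P265237 gave -0.30, -0.37 and -0.38, with PMM replicate 3 as the lowest array on each. The fifth probe, A_72_P117241, gave 0.07 (SE 0.60) and was lowest on LDM replicate 3.

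EIF4A1, the related helicase, gave readings that depended on the probe. A_72_P232237 read 1.58, 2.0 and 2.41 in LDM and 1.58, 1.88 and 2.41 in PMM, highest at replicate 3 in both muscles, with a difference of -0.04 (SE 0.36). A_72_P372643 read 1.15, 0.43 and 0.75 in LDM and 0.99, 0.45 and 0.26 in PMM, highest at replicate 1 in both muscles, with a difference of -0.21 (SE 0.34). A_72_P398168 gave -0.21 (SE 0.32) with a like profile. The latter probes overlap in sequence, as shown with their common 23 bases in capitals, so they are not independent readings.
A_72_P372643: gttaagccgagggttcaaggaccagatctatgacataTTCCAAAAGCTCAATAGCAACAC
A_72_P398168: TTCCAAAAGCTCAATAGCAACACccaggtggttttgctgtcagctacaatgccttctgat

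**Figure D4:**
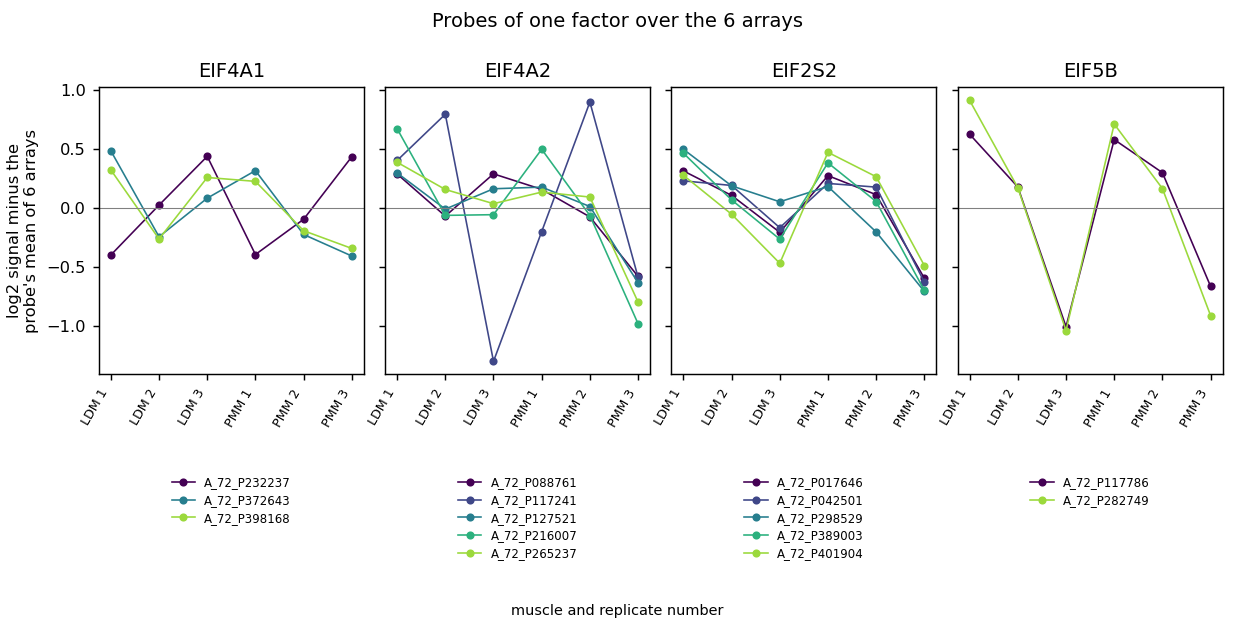
Signals of every tested probe of EIF4A1, EIF4A2, EIF2S2 and EIF5B on the 6 arrays (log2, minus the mean of the same probe), with lines joining the values of a probe. The EIF5B probes run together, and pairs of EIF2S2 probes correlate over the arrays at 0.569 to 0.989. A_72_P232237 of EIF4A1 and A_72_P117241 of EIF4A2 depart from the other probes of their gene.

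EIF4A3, the helicase of the exon junction complex, read 5.24, 5.44 and 5.46 in LDM and 5.19, 5.37 and 5.04 in PMM, a difference of -0.18 (SE 0.28). Its other probe, A_72_P116536, gave -0.39 (SE 0.31), and neither was called. EIF4B, which stimulates eIF4A, read -2.34, -1.87 and -1.18 in LDM and -2.40, -1.82 and -0.69 in PMM, a difference of 0.15 (SE 0.50). Of the 9 factors in this group it alone was higher in PMM by the mean, and in both muscles replicate 3 was its highest array.

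EIF4E, which binds the cap, read 3.37, 2.86 and 3.11 in LDM and 3.08, 2.86 and 2.53 in PMM, a difference of -0.29 (SE 0.31), adjusted p 1 in limma. EIF4E2, a related cap-binding protein that represses translation, was the single factor whose muscles did not overlap, 1 of 23 beside 5.94% of all tested probes without overlap in either direction and 2.79% lower in PMM. Its probe A_72_P303629 read 2.08, 1.79 and 1.80 in LDM and 1.78, 1.66 and 1.43 in PMM. The gap was narrow, since LDM replicate 2 and PMM replicate 1 nearly met. The difference of -0.26 (SE 0.29), or 1.20-fold lower in PMM, had an exact permutation p of 0.1, and limma gave an adjusted p of 1. A further EIF4E2 probe, A_72_P077671, gave -0.19 (SE 0.35) with overlapping muscles. EIF4ENIF1, the eIF4E transporter, read -1.48, -1.03 and -1.52 in LDM and -2.08, -1.04 and -0.77 in PMM, with opposite differences of -0.60 and 0.75 between the arrays of replicates 1 and 3 and a mean of 0.05 (SE 0.40).

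Replicate number took more of the sum of squares than muscle in 18 of the 23 factors, and muscle took more in EIF4A2, EIF4A3, EIF4E2, EIF4G1 and EIF4G2. Replicate number splits the arrays into more groups than muscle does, so on average it takes a larger share even without any effect. The like count over all tested probes was not computed, so the count is not read as a trait of the factors. Replicate number took a median of 79.8% of the sum of squares over the 23 factors, and muscle 5.54%, close to the 74.3% and 6.42% over all tested probes. Replicate number coincided with the scan day, so an animal, a day or another source of that split cannot be told apart. Muscle was compared within each number, and 8 factors were lower in PMM in all 3 pairs and 0 were higher in all 3. Of all 25835 tested probes, 4883, or 18.9%, were lower in all 3 pairs and 4442 were higher in all 3. The 8 factors were EIF2S2, EIF2S3, EIF2B4, EIF4A2, EIF4A3, EIF4E, EIF4E2 and EIF4G3, chosen here for their values. EIF4E was lower by as little as -0.00081 at replicate 2. limma called none of the fibre and cell type markers, with or without the block. All 7 slow fibre markers tested had a higher mean in PMM, with a median of 0.62, and the 9 fast fibre markers had a median of 0.06. The 7 adipocyte markers had a median of -0.52, with 2 of them at a higher mean in PMM, and 0 of 4 fibroblast markers had a higher mean, with a median of -0.63. The 4 endothelial markers had a median of 0.29, the 3 immune cell markers 0.11, and the only Schwann cell marker measured was 0.08. The erythrocyte and smooth muscle lists had no named probe. The part of these markers in the differences of the factors was not tested.

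Among the 15 probes described by a protein of another organism, 10 were tested. Of the 4 tested eEF1A probes, A_72_P096606 and A_72_P346433 share 33 and 32 bases with the EEF1A1 probe A_72_P066381 and 53 with each other, and they gave -0.29 (SE 0.32) and -0.06 (SE 0.33). In the other direction, A_72_P009636 gave 0.30 (SE 0.33) and A_72_P159776 gave 0.01 (SE 0.52). The probe with the lowest unadjusted p of all member probes, A_72_P034381, is described as an eIF2 beta subunit of another organism. It read -4.56, -4.77 and -3.51 in LDM and -7.03, -4.80 and -5.21 in PMM. It was well above the background on 3 LDM arrays but on 1 PMM array, and so entered the test through LDM alone. Its PMM readings of replicates 1 and 3 lay below the lowest detected signals of those arrays, -4.79 and -4.85, so no difference is given, and its adjusted p was 1 in limma. The other 3 such eIF2 beta probes gave differences from -0.08 to 0.07. The probes described as eIF5 and eIF5A gave 0.03 and 0.15. The AGO2 probes gave -0.20 and -0.25, and none of these was called.

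The rest of the pathway was described with a list of 53 other translation genes, of which 10 had a named probe and 9 were tested. 8 of the 9 were lower in PMM by the mean, with a median of -0.21, and 0 were called with or without the block. Without overlap between the muscles was 1 of the 9, DDIT4, beside 5.94% of all tested probes in either direction and 2.79% lower in PMM. DDIT4, an inhibitor of the growth kinase mTORC1, read 6.48, 6.19 and 6.92 in LDM and 6.08, 5.70 and 6.04 in PMM. Its difference was -0.59 (SE 0.32), with an exact permutation p of 0.1, and limma gave an adjusted p of 1. PDCD4, which inhibits eIF4A, gave -0.37 (SE 0.34), and RPS6KB1, the kinase of ribosomal protein S6, gave -0.32 (SE 0.34). ATF4, whose translation rises when eIF2 is phosphorylated, gave -0.30 (SE 0.37), and DENR, which helps ribosomes reinitiate, gave -0.21 (SE 0.33). DPH5, of the pathway that modifies eEF2, was the only gene of this list with a higher mean in PMM, at 0.13 (SE 0.32).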

How the data were processed

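RNA of LDM and PMM was hybridized to one-colour Agilent arrays, 3 per muscle. The authors deposited linear intensities from Agilent Feature Extraction 10.5.1.1, background-subtracted and detrended on each array, with no scaling across arrays. The series value table held the same intensities within 0.005 units, and no columns were left unmapped. Here, control and outlier spots were left out, spots of a probe averaged and log2 taken minus each array's 75th percentile. PMM was set against LDM by limma 3.58.1 under R 4.3.3 (two-sided, Benjamini-Hochberg over all tested probes, threshold 0.05) and by exact permutation. A factor was represented by its tested probe with the highest mean signal.

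Members and lists were chosen with earlier results of these data known. Named members were EEF1A1 and EEF1A2, members called or without overlap, and up to 3 per factor group with the largest change. Other members described in the text were picked for description after their values were seen. Probes were placed on factors by gene name or accession (29), by a mammalian description (31, with AGO2 and AGO4), or left unplaced (15). Probes carry sequences from the deposited files, and no genome was used.

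After subtracting muscle means, same-numbered arrays correlated at 0.616, 0.697 and 0.56 for replicates 1, 2 and 3, all above 0.1. They were therefore also fitted as pairs, with the replicate number as a block. Standard errors and adjusted p-values are from the fit without a block unless another fit is named. Same-numbered arrays shared a scan day, and those of replicates 2 and 3 a slide, so the correlations do not show a shared animal. Labels name 3 arrays per muscle as replicates, and p-values measure the spread between them. limma was tested on simulated data.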

Additional observations from a re-analysis of the deposited data

How the results depend on the processing

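limma called no factor under 19 of the 20 alternatives in which factors were counted and no member probe under 18 of the 19 in which probes were counted. The exception was the slide as a block, which called 1 factor and 1 probe, both EIF4G1, beside 2.93% of all probes. That call rested on the arrays of replicate 3 and is not read as a difference between the muscles. In the paired fit, with the replicate number as a block, EEF1A1 gave -0.11 (SE 0.18, adjusted p 0.849 in limma) and no call changed. The fit without both arrays of replicate 3 was chosen after seeing the data, and there the EEF1A1 difference was 0.02. The number of factors without overlap was 0 with normexp, 0 with median centring and 0 with members placed only by name or accession. It was 2 with quantile normalization and 3 without the filter on detection, where EIF2AK1 and EIF5, untested in the main setting, were among them. The share of all probes without overlap was computed in the main setting only, at 5.94%, so these counts are not read further. Leaving out 1 array at a time moved the EEF1A1 difference between -0.27 and 0.12, with 0.12 without LDM replicate 3 and 0.03 without PMM replicate 1. With detection judged on the remaining arrays, the median over the factors then lay between -0.25 and -0.01, and over the same 23 probes between -0.28 and -0.01. Normexp moved the median of all probes from -0.03 to 0.11, while the median of the factors there was -0.25. EEF1A2 was fitted only without the filter, and its difference from EEF1A1 was not run.

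Of the 18 named members, 14 changed sign under some alternative, and the cause was not tested. EIF4G1 and EIF4G2 kept their sign under normexp, at -0.18 and -0.19. Under normexp the differences were -0.10 for EEF1G, -0.067 for EIF2S1, -0.0667 for EIF5B, -0.0511 for EIF2B3, 0.35 for EIF2AK4 and 0.24 for EIF2S3. Quantile normalization, with or without the replicate block, gave -0.032 for EEF1G and 0.00562 for EIF3D. Median centring gave -0.0163 for EIF4ENIF1, and the mean of all probes -0.073 for EEF1G. With the slide as a block EEF1G was at -0.0601, EIF2S1 at -0.0175 and EIF2AK4 at 0.37. Leaving out single arrays, or both of replicate 3, gave ranges of -0.17 to 0.27 for EEF1G, -1.6 to 0.0514 for EIF4G1, -0.27 to 0.15 for EIF3D, -0.56 to 0.0216 for EIF2B4, -0.30 to 0.44 for EIF4ENIF1, -0.46 to 0.23 for EIF2AK4, -0.35 to 0.18 for EIF2B1, -0.23 to 0.14 for EIF3E, -0.33 to 0.51 for EIF5B, -0.17 to 0.42 for EIF2B3, -0.31 to 0.11 for EIF2S2 and -0.37 to 0.10 for EIF2S3. Without both arrays of replicate 3, EIF3D was at 0.15, EIF3E at 0.14 and EIF4ENIF1 at -0.30.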
